A study of Mus musculus with 6 samples.

Results

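The genes of the translation factors, the proteins that start protein synthesis on an mRNA (initiation factors, Eif) and move the ribosome along it (elongation factors, Eef), were read out in AE9a leukemia cells of 2 bone marrow regions. Members were the protein-coding genes whose symbol starts with Eif or Eef, a rule that uses no measured value. It chose 69 of the 54532 genes in the count table, 55 of them Eif and 14 Eef. AE9a leukemia cells are mouse leukemia cells made by infecting c-Kit+ hematopoietic progenitors with a retrovirus for AML1-ETO9a, a short form of the t(8;21) fusion protein, and passing them through mice. The libraries come from C57BL/6 leukemia mice of the third transplant generation, the first recipients having been irradiated females. Central bone marrow (CBM) cells came from flushing femurs and tibias, and endosteal bone marrow (EBM) cells were then released from the flushed bones with collagenase I, so that region and digestion cannot be told apart. Both groups carry AE9a and neither received a drug. Each region has 3 libraries, and no source used here says whether they are from separate mice, so p-values measure the spread between these libraries, which may be technical.

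Initiation begins when eIF2, bound to GTP and the initiator tRNA, joins the small ribosomal subunit together with eIF1, eIF1A, eIF5 and the large scaffold eIF3. The eIF4F complex, made of the cap-binding protein eIF4E, the scaffold eIF4G and the helicase eIF4A, brings this assembly to the mRNA, and the 4E-binding proteins keep eIF4E away from eIF4G until the kinase mTOR phosphorylates them. Under stress, kinases phosphorylate the alpha subunit of eIF2 and block its recharging by eIF2B, which lowers initiation in general while mRNAs such as that of ATF4 are translated more. During elongation eEF1A delivers each aminoacyl-tRNA and eEF2 moves the ribosome by a codon. Since mTOR and the supply of oxygen and amino acids act on these steps, and the study asked how leukemia cells differ between the regions, the mRNA levels of the factors were compared between EBM and CBM. The activity of most of these proteins is set by phosphorylation, which RNA-seq does not measure.

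Each library held 16436526 to 19462964 counts on genes, so that 3 counts correspond to 0.149 to 0.193 CPM (counts scaled to a common library size, here with TMM factors). The floor of 3 counts covers counting error only. The TMM factors were 1.030, 1.009 and 1.037 in CBM (replicates 1, 2 and 3) and 0.985, 0.994 and 0.948 in EBM. They split by region, and this scaling raised EBM values against CBM values. The libraries of a region did not group together on the main axis of variation, which held 53.0% of the variance. CBM replicate 1 lay at 38.5 and CBM replicate 2 at -42.9, EBM replicate 1 at 36.4 and EBM replicate 3 at -46.0. On the second axis, with 19.7% of the variance, the regions did not overlap. CBM lay there at 22.8, 3.58 and 31.5 and EBM at -22.2, -20.9 and -14.8 (replicates 1, 2 and 3). Of 8 leukemia and immature myeloid markers, which all passed the filter, Kit had 196 to 239 CPM, while Cd34 ran from 1.16 to 16.4 CPM and Mpo from 1.65 to 35.8 CPM over the 6 libraries. None of 8 osteoblast and osteocyte markers passed the filter on low counts and 4 of them, Bglap2, Sp7, Alpl and Dmp1, were at 0. Summed CPM of 5 erythroid markers ran from 2096 to 5210 in CBM and from 2422 to 3614 in EBM, with the highest sum in CBM replicate 2. For 5 neutrophil markers it was 6.15, 167 and 2.28 in CBM and 36.3, 111 and 25.9 in EBM. This sum too was highest in CBM replicate 2. Summed CPM of 12 genes that respond to tissue digestion was 10421, 6898 and 3708 in CBM (replicates 1, 2 and 3, the order used throughout). In EBM it was 10550, 8357 and 8960, so the sums overlapped. Some single genes separated the regions: Hspa1b had 9.50, 3.74 and 3.37 CPM in CBM and 112, 50.3 and 58.6 CPM in EBM. Nfkbia had 1275, 1077 and 653 CPM in CBM and 1821, 1566 and 1702 CPM in EBM. Dusp1 went the other way, with 1329, 764 and 595 CPM in CBM and 382, 447 and 400 CPM in EBM. Of the 12 genes, 8 were higher in EBM and 4 lower. The part of these differences in the results was not tested. In these bulk libraries, fewer cells of a type and less RNA per cell cannot be told apart.

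No translation factor passed the adjusted threshold between the regions. Of the 69 members, 63 passed the filter on low counts, and 0 of these were called by the quasi-likelihood test of edgeR at an adjusted p under 0.05, the smallest adjusted p being 0.507. Over all 13352 genes tested the share called was 0%. DESeq2 and limma-voom also called 0 members. At an unadjusted p under 0.05, edgeR gave 8 members, 7 of them higher in EBM and 1 lower, DESeq2 gave 6 and limma-voom 8. This split in direction turned with a correction for the trend of fold change with mean level, where 2 of 5 such members were higher, and without EBM replicate 3, where 1 of 4 was higher. The share of members higher in EBM at this level was 11.1%, beside 4.01% of all genes tested, and the share lower was 1.59%, beside 3.9%.

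The differences were small and leaned to EBM. A log2 fold change above 0 was found for 46 of 63 members (73.0%, against 50.4% of all genes tested), with a median of 0.12 against 0.00 over all genes. In 15 members (23.8%) every EBM library lay above every CBM library, beside 7.47% of all genes, and in 3 members (4.76%) every EBM library lay below, beside 7.65%. These 3 were Eif2ak2, Eif2ak3 and Eif3j2. The 15, named here after their values were seen, were Eif1, Eif2s2, Eif2d, Eif2b2, 6 eIF3 subunits (Eif3c, Eif3d, Eif3e, Eif3g, Eif3h and Eif3i), Eif4a3, Eif4e2, Eif4h, Eef1a1 and Eefsec. Of the initiation factors 36 of 51 tested were higher and 15 lower, and of the elongation factors 10 of 12 were higher and 2 lower.

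**Figure D1:**
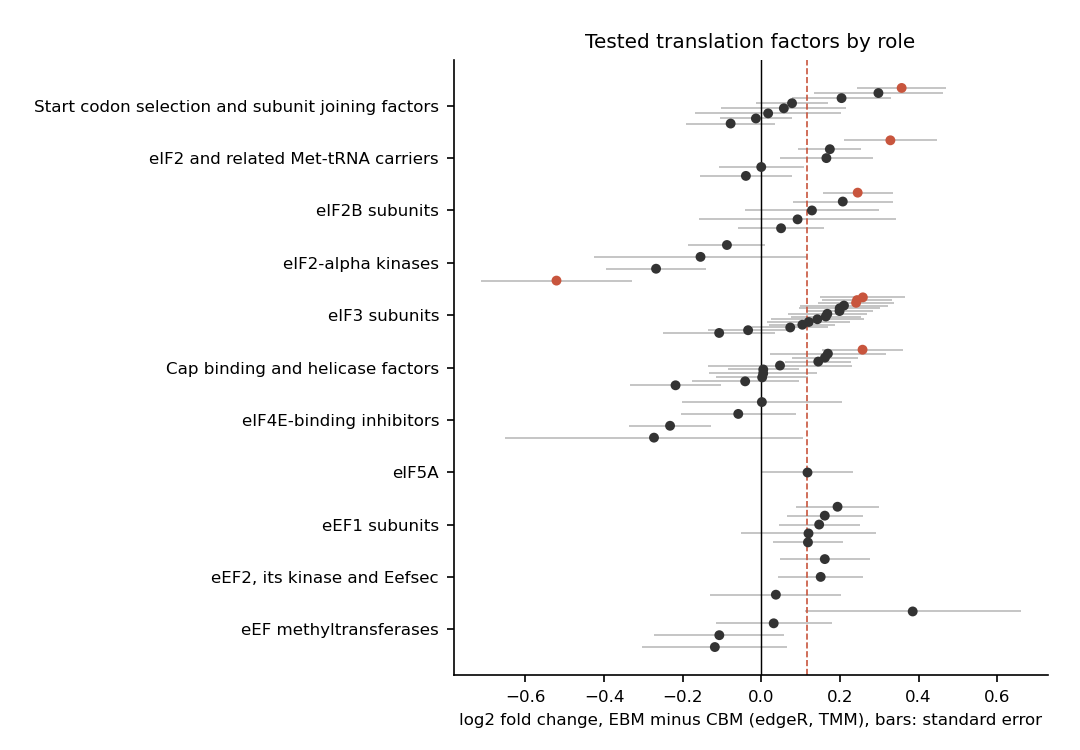
Log2 fold change between EBM and CBM (x axis, above 0 is higher in EBM) of the 63 tested translation factors in 11 roles (rows); each point is a gene with its standard error, red points have an unadjusted p under 0.05, and the dashed line is the members' median of 0.12. The 5 points in the eIF2B row and the 5 in the eEF1 row, grouped by symbol, lie right of 0, and the 4 eIF2-alpha kinases lie left of it.

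The lean was not even across libraries. Against the CBM mean of each gene on the log2 scale, the median over the 63 members was -0.05, -0.01 and 0.06 in the CBM libraries and 0.05, 0.05 and 0.21 in the EBM libraries. CBM replicate 3 was thus as high as EBM replicates 1 and 2, and EBM replicate 3 stood apart from the rest. Without EBM replicate 3 the median fold change was 0.06 on the log2 scale and 36 of 63 members were higher in EBM. Over all genes tested, the same medians lay between -0.00427 and 0.00886.

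The lean also moved with the level of the genes. Among all other genes tested, those with a mean of 30 to 100 CPM had a median log2 fold change of 0.02 and 54.2% of them were higher in EBM, while those above 1000 CPM had a median of 0.17 and 86.4% higher. Members had medians of 0.11 at 30 to 100 CPM (13 of 16 higher), 0.13 at 100 to 300 CPM (16 of 20 higher) and 0.13 at 300 to 1000 CPM (11 of 16 higher), where the other genes had 0.02, 0.04 and 0.07. Above 1000 CPM the 4 members had a median of 0.14, below that of the other genes. The 7 members under 30 CPM had medians of -0.11 up to 10 CPM (1 of 4 higher) and -0.12 from 10 to 30 CPM (1 of 3 higher). The other genes had -0.07 and -0.02 in these bins. Eef1akmt4, in the lowest bin, had the highest fold change of the tested members, 0.39 on the log2 scale, and its regions overlapped. With a correction for this trend with mean level, the members' median was 0.02 and 36 of 63 were higher in EBM.

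**Figure D2:**
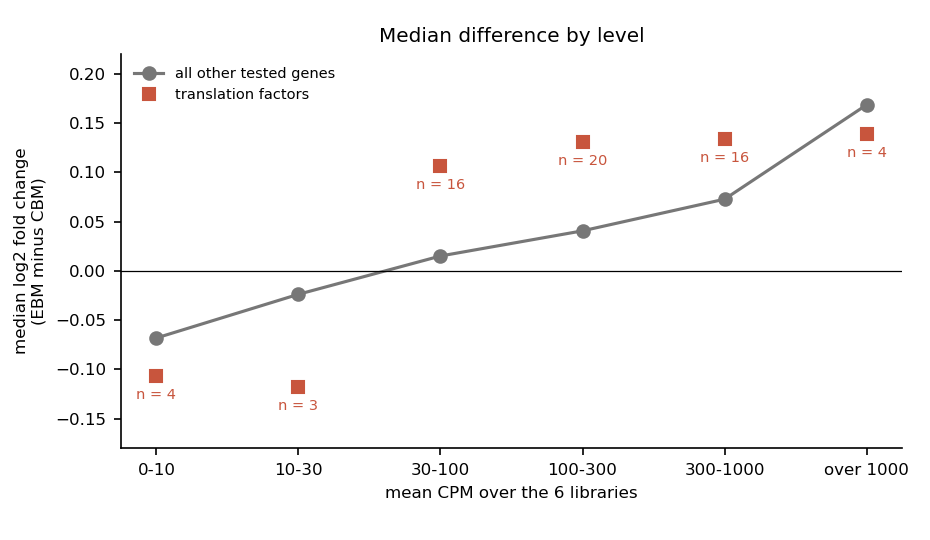
Median log2 fold change between EBM and CBM (y axis) of translation factors (squares, with their number) and of all other tested genes (circles) in bins of mean CPM over the 6 libraries (x axis). The circles climb from -0.07 in the lowest bin to 0.17 above 1000 CPM, and the squares lie above them from 30 to 1000 CPM.

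The factors differed far more from each other than between regions. As RPKM, the CPM divided by the gene length in kilobases given in the table, the mean over the 6 libraries ranged from 1.21 for Eif4ebp3 to 4210 ± 336 (SD, n = 6) for Eef1a1, the GTPase that brings tRNAs to the ribosome and the gene of rank 3 among all tested. Eef2, the translocase, followed at 1783 ± 181 RPKM (rank 11), then Eif5a, which carries the hypusine residue and helps ribosomes through difficult stretches, at 445 ± 40.2 RPKM. Eef1g, a subunit of the eEF1A exchange factor, had 352 ± 31.1 RPKM and Eif1, which guards the choice of start codon, 301 ± 48.8 RPKM, and the ranges of this pair over the 6 libraries overlapped. The highest subunit of eIF3 was Eif3h, with 240 ± 25.8 RPKM, and it was 66.6 times the lowest, Eif3j2. Among the eIF2-alpha kinases, mean levels ran from 4.24 RPKM for Eif2ak3 to 27.1 RPKM for Eif2ak1. The length covers the annotated exons of a gene, so that genes with long untranslated or rarely used exons are scaled down.

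**Figure D3:**
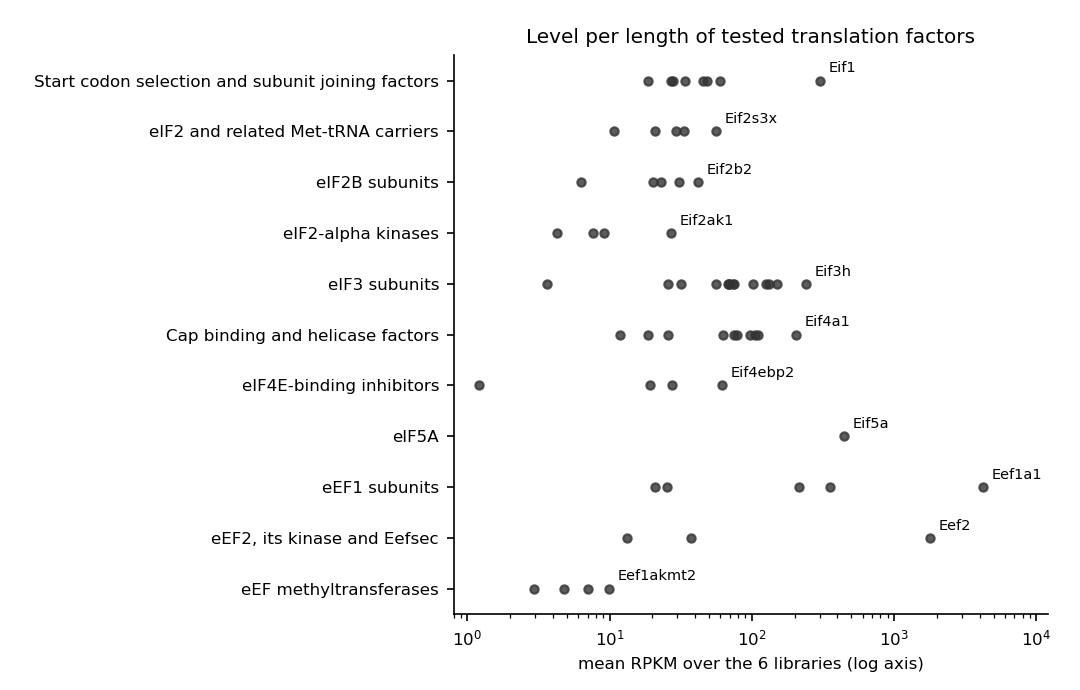
Mean RPKM over the 6 libraries (x axis, log scale) of the 63 tested translation factors by role (rows); each point is a gene and the highest of each role is named. Eef1a1 at 4210 and Eef2 at 1783 stand to the right of the other factors, and the eEF methyltransferases lie at or below 9.93.

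Together the 69 members took 3.10%, 3.14% and 3.13% of the counts on genes in CBM and 3.20%, 3.11% and 3.39% in EBM, so these unscaled shares overlapped. On TMM-scaled CPM the sums were 30126, 31130 and 30192 for CBM and 32531, 31305 and 35819 for EBM, where the lowest EBM library lay above the highest CBM library. The TMM factors, lower in every EBM library than in any CBM library, made this change from overlap to separation. Eef1a1 and Eef2 alone made up 1.604%, 1.631% and 1.526% in CBM and 1.705%, 1.581% and 1.776% in EBM. The summed share of the members was 3.12% ± 0.0187 (SD, n = 3) in CBM and 3.23% ± 0.145 (SD, n = 3) in EBM.

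The remaining 6 members were at or near the detection limit and were not tested. Eif4e1b, the oocyte form of eIF4E, and Eif2s3y, the Y-linked gene for eIF2 gamma, had 0 counts in all 6 libraries. Eef1a2, the form of eEF1A of muscle and neurons, had 1 count in CBM replicate 1 and 0 elsewhere, and Eif5a2 had 1 count in EBM replicate 3 and 0 elsewhere. Eif4e3, a further cap-binding protein, had 0, 5 and 2 counts in CBM and 0, 7 and 4 in EBM, and Eef1akmt3, a lysine methyltransferase of eEF1A, had 3, 2 and 1 counts in CBM and 7, 7 and 2 in EBM. At this depth no difference in them was detectable.

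In the group of start codon selection and subunit joining, which also holds Eif6 and Eif1ad, 6 of 8 were higher in EBM and 2 lower, with a median log2 fold change of 0.07. Eif1 (ENSMUSG00000035530, chr11:100319885-100322096, plus strand, GRCm38) had the smallest p of the members. It had 571, 552 and 538 CPM in CBM and 625, 700 and 801 CPM in EBM. The 3 EBM libraries were above the 3 CBM libraries, by 1.28-fold in the means, with a log2 fold change of 0.36 ± 0.11 (SE) and an edgeR adjusted p of 0.507 (unadjusted 0.0171). Eif5, which makes eIF2 hydrolyze its GTP at the start codon, had 407, 463 and 392 CPM in CBM and 369, 440 and 386 CPM in EBM, and its regions overlapped (log2 fold change -0.08).

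Among eIF2 and the related carriers of the initiator tRNA, 3 of 5 tested were higher and 2 lower, with a median log2 fold change of 0.17. Eif2s2, the beta subunit of eIF2, had 159, 165 and 198 CPM in CBM and 201, 235 and 221 CPM in EBM, a log2 fold change of 0.33 ± 0.12 (SE) with an edgeR adjusted p of 0.554. The highest CBM library came within 3.04 CPM of the lowest EBM library. Eif2s1, the alpha subunit that the stress kinases phosphorylate, had 147, 144 and 177 CPM in CBM and 161, 174 and 190 CPM in EBM, and CBM replicate 3 lay above EBM replicates 1 and 2 (log2 fold change 0.17 ± 0.12). Eif2s3x, the X-linked gamma subunit, had 193, 218 and 233 CPM in CBM and 202, 211 and 231 CPM in EBM, with a log2 fold change of 0.00 ± 0.11. The 3 subunits of this complex thus had differences from 0.00 to 0.33, and a difference between subunits was not tested.

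The 5 subunits of eIF2B, which reloads eIF2 with GTP, were higher in EBM by 0.05 to 0.25 on the log2 scale, with a median of 0.13. Eif2b2, the beta subunit, had 77.6, 68.0 and 71.0 CPM in CBM and 87.2, 83.2 and 86.2 CPM in EBM, without overlap (log2 fold change 0.25 ± 0.09, adjusted p 0.561 in edgeR's test). Its EBM libraries were close together, with an SD of 2.08 CPM. Over the 5 subunits, EBM replicate 3 had the highest median, 0.44 above the CBM mean on the log2 scale, and EBM replicates 1 and 2 had -0.05 and 0.00.

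The 4 kinases of eIF2 alpha were each lower in EBM, their median log2 fold change being -0.21, and none passed the adjusted threshold. Eif2ak2 (PKR, the kinase that double-stranded RNA activates; chr17:78852564-78882573, minus strand) had 44.3, 71.1 and 50.1 CPM in CBM and 35.8, 36.4 and 43.2 CPM in EBM. This was the member with the lowest fold change, -0.52 ± 0.19 (SE) on the log2 scale, with an edgeR adjusted p of 0.572 (unadjusted 0.0315). CBM replicate 2 carried the highest value, and EBM replicate 3 and CBM replicate 1 were 1.085 CPM apart. Leaving out a library in turn gave log2 fold changes between -0.65 and -0.29, the latter without CBM replicate 2.

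Eif2ak3 (PERK, which answers to unfolded proteins in the endoplasmic reticulum) had 26.8, 28.6 and 28.4 CPM in CBM and 20.1, 23.7 and 25.8 CPM in EBM, a log2 fold change of -0.27 ± 0.13 (SE) and an unadjusted p of 0.0757 in edgeR's test. The EBM libraries were below those of CBM and spread more. Eif2ak4 (GCN2, which senses uncharged tRNAs when amino acids are short) had 54.9, 60.3 and 61.0 CPM in CBM and 54.2, 59.4 and 52.2 CPM in EBM, with overlap (log2 fold change -0.09 ± 0.10). Eif2ak1 (HRI, the heme-regulated kinase of erythroid cells) had 117, 225 and 143 CPM in CBM and 122, 131 and 184 CPM in EBM. Its value was highest in CBM replicate 2, the library with the highest erythroid sum, 5210 CPM. Single erythroid markers differed: Alas2, the erythroid heme enzyme, had 33.1, 182 and 65.6 CPM in CBM and 49.2, 93.7 and 107 CPM in EBM. The marker Hbb-bs had 1117, 1434 and 808 CPM in CBM and 1279, 1338 and 807 CPM in EBM, and so was lowest in EBM replicate 3. The log2 fold change of Eif2ak1 was -0.15 ± 0.27 (SE) and without CBM replicate 2 it was 0.16, so its direction rested on that library, and the part of erythroid RNA in it was not tested.

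**Figure D4:**
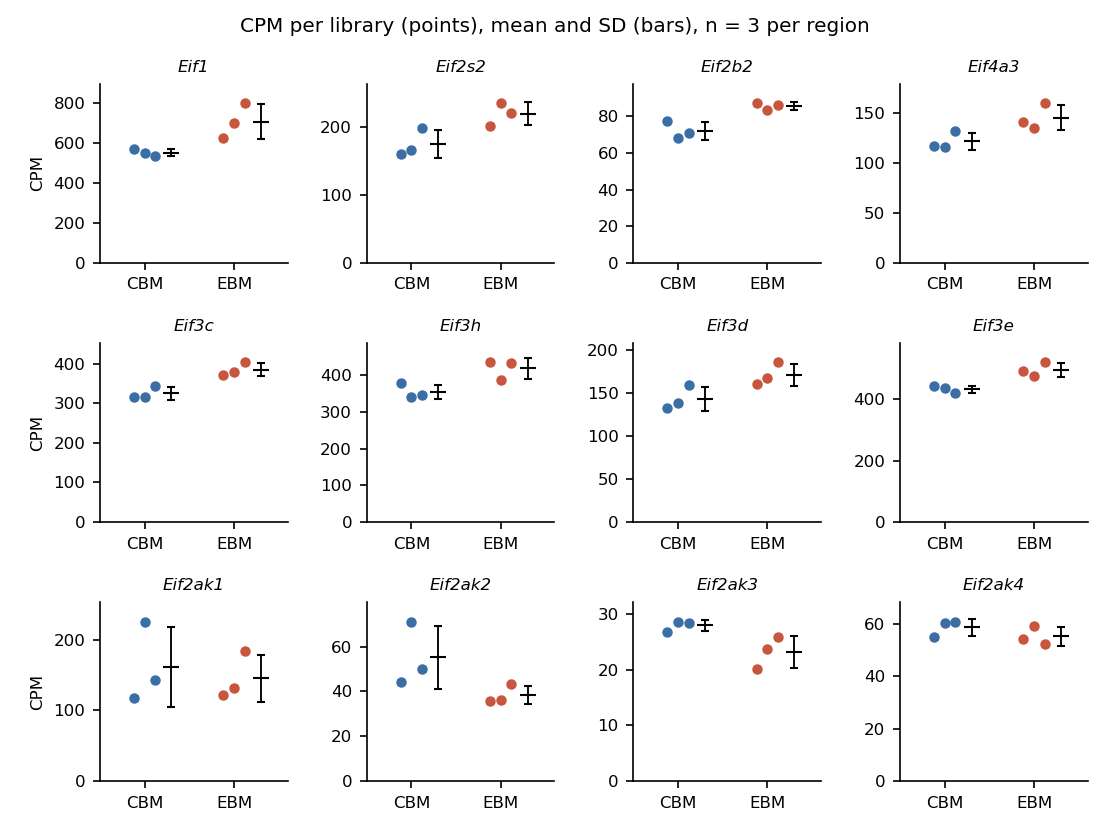
CPM (y axis, from 0) in the CBM (blue) and EBM (red) libraries for the 8 members with the smallest p among those higher in EBM (top rows) and the 4 eIF2-alpha kinases (bottom row); points are libraries in the order of their replicate numbers, bars are the mean and SD, n = 3. The regions do not overlap in the top 8 panels nor for Eif2ak2 and Eif2ak3, and CBM replicate 2 is the highest point for Eif2ak1 and Eif2ak2.

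The eIF3 complex, the scaffold on the small ribosomal subunit, had 12 of 14 subunits higher in EBM and 2 lower (median log2 fold change 0.17). For 6 of the 14 (42.9%, beside 7.47% of all genes tested) the EBM libraries were all above the CBM libraries. For 1, Eif3j2, they were all below (7.14%, beside 7.65%). Its genes together took 0.394%, 0.389% and 0.408% of the counts in CBM and 0.411%, 0.410% and 0.428% in EBM, so that the lowest EBM library lay just above the highest CBM library. The median over the subunits, against the CBM mean on the log2 scale, was 0.15, 0.08 and 0.26 in EBM replicates 1 to 3.

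Eif3c, a core subunit that contacts eIF1 and eIF5, had 316, 316 and 343 CPM in CBM and 371, 380 and 404 CPM in EBM (log2 fold change 0.24 ± 0.09, adjusted p 0.560 in edgeR's test). Eif3h, a subunit with an MPN domain, had 378, 341 and 345 CPM in CBM and 436, 387 and 435 CPM in EBM (0.24 ± 0.10 on the log2 scale, unadjusted p 0.0418). Eif3d, a subunit that can itself bind the cap of some mRNAs, had 133, 138 and 159 CPM in CBM and 161, 167 and 186 CPM in EBM (0.26 ± 0.11 on the log2 scale, unadjusted p 0.0493). The gap between the regions was 27.8 CPM for Eif3c, 8.99 CPM for Eif3h and 2.01 CPM for Eif3d. Each gap was smaller than the range within EBM (32.8, 48.6 and 24.7 CPM). The last 2 were also smaller than the range within CBM, which was 27.4 CPM for Eif3c. Eif3e, the Int6 subunit, had 442, 436 and 419 CPM in CBM and 491, 477 and 520 CPM in EBM (log2 fold change 0.20 ± 0.09, unadjusted p 0.0535). On the lower side, Eif3j2, a copy of the loosely bound j subunit, had 8.592, 9.002 and 9.080 CPM in CBM and 7.84, 8.57 and 8.35 CPM in EBM, with a log2 fold change of -0.11 ± 0.14. Its near-identical copy Eif3j1 may share reads with it, so the split between these genes is uncertain.

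**Figure D5:**
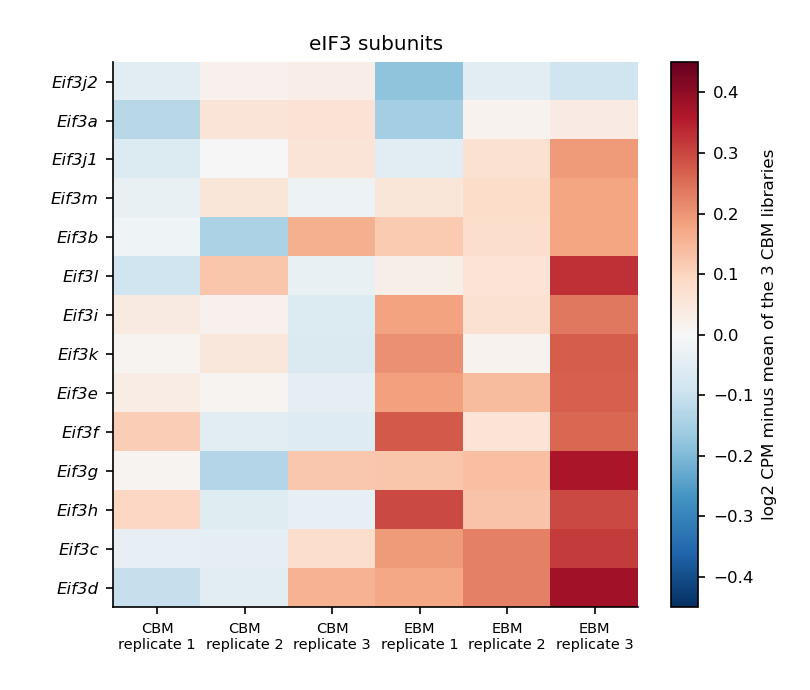
Log2 CPM of the 14 eIF3 subunits (rows, ordered by fold change) in each library (columns) minus the mean of the 3 CBM libraries; red is higher and blue lower. EBM replicate 3 is the reddest column, with a median of 0.26, and Eif3j2 at the top is blue in the 3 EBM libraries.

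For the cap-binding and helicase factors, 8 of 10 tested were higher and 2 lower, but the median log2 fold change was 0.03. None of the 3 main parts of eIF4F separated the regions. Eif4e had 139, 135 and 160 CPM in CBM and 137, 157 and 193 CPM in EBM (log2 fold change 0.17 ± 0.15), and its fold change was 0.01 without EBM replicate 3 and 0.28 without EBM replicate 1. Eif4g1 had 630, 717 and 784 CPM in CBM and 638, 672 and 828 CPM in EBM (0.00 ± 0.14 on the log2 scale), and Eif4a1 had 897, 851 and 902 CPM in CBM and 835, 882 and 941 CPM in EBM (0.00 ± 0.09). In each of these the libraries of the regions overlapped. Eif4a3, a helicase of the exon junction complex rather than of cap binding, had 117, 116 and 132 CPM in CBM and 141, 135 and 160 CPM in EBM, without overlap (log2 fold change 0.26 ± 0.10, unadjusted p 0.0432 in edgeR's test). Eif4a2, the helicase close to Eif4a1 and a partner of the CCR4-NOT deadenylase, had 412, 476 and 457 CPM in CBM and 338, 413 and 404 CPM in EBM, with overlap at the edge (log2 fold change -0.22 ± 0.11, unadjusted p 0.0997).

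Of the 4 genes for proteins that bind eIF4E and hold it back, 3 were lower and 1 higher in EBM (median log2 fold change -0.15). Their summed share of the counts was 0.0539%, 0.0596% and 0.0621% in CBM and 0.0476%, 0.0498% and 0.0514% in EBM, without overlap. On TMM-scaled CPM the sums were 524, 592 and 600 (CBM) and 483, 502 and 543 (EBM), and there EBM replicate 3 lay above CBM replicate 1, so the separation held for unscaled shares and not for scaled CPM. Most of this was Eif4ebp2, with 355, 399 and 404 CPM in CBM and 314, 312 and 361 CPM in EBM. Here EBM replicate 3 lay above CBM replicate 1, and the log2 fold change was -0.23 ± 0.10 (SE) with an edgeR adjusted p of 0.656. Eif4ebp1, the best known mTOR target of the family, had 61.4, 45.9 and 72.7 CPM in CBM and 62.4, 69.2 and 48.4 CPM in EBM, a log2 fold change of 0.00 ± 0.20. Eif4ebp3 was near the limit, with 0.595 to 1.37 CPM in CBM and 0.771 to 0.835 CPM in EBM, and it overlaps Ankhd1 on the same strand, which held 18767 counts against 97, so its value is uncertain.

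For elongation, the 5 tested genes grouped with eEF1 by their symbols were Eef1a1, Eef1b2, Eef1d, Eef1e1 and Eef1g. They were higher in EBM by 0.12 to 0.19 on the log2 scale, and not all of them need be parts of the eEF1 complex. Eef1a1 (ENSMUSG00000037742, chr9:78478449-78489151, minus strand) had 10072, 10220 and 9435 CPM in CBM and 11128, 10321 and 11795 CPM in EBM. The lowest EBM library exceeded the highest CBM library by 101 CPM, and the log2 fold change was 0.16 ± 0.10 (SE) with an unadjusted p of 0.141 in edgeR's test. Eef2 had 5515, 5970 and 5302 CPM in CBM and 6206, 5608 and 6961 CPM in EBM, with overlap (log2 fold change 0.16 ± 0.11). Its kinase Eef2k, which halts elongation when energy is short, had 245, 305 and 266 CPM in CBM and 242, 249 and 346 CPM in EBM (log2 fold change 0.04 ± 0.17). Eif5a had 1069, 873 and 1106 CPM in CBM and 1148, 1069 and 1088 CPM in EBM (0.12 ± 0.12 on the log2 scale). Of the 4 tested eEF methyltransferases, 2 were higher and 2 lower, the most abundant being Eef1akmt2 with 15.8 to 20.3 CPM in CBM and 16.8 to 18.8 CPM in EBM. With a correction for the trend with mean level, the fold changes of Eef1a1 and Eef2 turned to -0.09 and -0.07 on the log2 scale.

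Pairs of related genes were compared by the share of the second gene in the summed RPKM. Of 9 pairs, 6 had both genes tested, and these were compared by an exact permutation test over the 20 relabellings of the libraries, whose smallest possible two-sided p of 0.1 cannot pass 0.05. The share of Eif4a2 beside Eif4a1 was 29.2% ± 2.03 in CBM and 26.1% ± 1.41 in EBM (SD, n = 3, exact p = 0.2, adjusted over the 6 pairs 0.4). The share of Eif1ax beside Eif1a was 38.3% ± 3.17 in CBM and 33.3% ± 2.61 in EBM, and that of Eif1b beside Eif1 was 14.7% ± 1.65 and 11.9% ± 1.45 (SD, n = 3, exact p = 0.2 for each). Eif4ebp2 made up 71.1% ± 4.93 of its sum with Eif4ebp1 in CBM and 67.5% ± 5.63 in EBM (SD, n = 3, exact p = 0.5). The shares of Eif4g3 beside Eif4g1 and of Eif4e2 beside Eif4e differed by 0.556 and -0.188 percentage points between CBM and EBM (exact p = 0.9 and 1). A processed pseudogene of the helicase, Eif4a-ps4, held 2558 to 3159 counts in CBM and 2776 to 3094 in EBM and may share reads with the Eif4a genes.

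Promoter sequences from RefSeq on GRCm38.p6 were at hand for 53 members, as windows from 250 bases before to 50 after a start. The E-box CACGTG, the site of the MYC and TFE factor families and the same on both strands, was in the windows of 13 members (24.5%), beside 8.09% of the 27025 genes with a window. These include genes that were not tested. A share over tested genes alone is not given, so the 2 shares are not from like sets of genes. The ATF4 element TGATGNAA, searched on both strands, was in those of 2 members, Eef2k and Eif2s3x (3.77%), beside 4.51% of genes. A match is a description of letters and not a site. The windows of Eif3f, Eif3k, Eif4a1, Eif5a, Eif4g1 and Eef2, which stand for eIF3, eIF4F, hypusinated eIF5A and elongation, are shown on the strand of the gene with the E-box in capitals. They end before the RefSeq start, and lie outside annotated transcripts except those of Eif5a and Eif4g1, which are in introns of longer transcripts.
Eif3f, chr7:108934312-108934387, plus strand, E-box 68 bases before the start: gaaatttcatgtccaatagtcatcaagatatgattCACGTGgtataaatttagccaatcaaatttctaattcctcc
Eif3k, chr7:28981892-28981967, minus strand, 44 bases before: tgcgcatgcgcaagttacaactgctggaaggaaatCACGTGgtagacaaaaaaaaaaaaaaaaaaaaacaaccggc
Eif4a1, chr11:69672572-69672647, minus strand, 189 bases before: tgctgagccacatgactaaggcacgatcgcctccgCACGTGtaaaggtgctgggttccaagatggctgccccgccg
Eif5a, chr11:69921420-69921495, minus strand, 74 or 185 bases before, by the start used: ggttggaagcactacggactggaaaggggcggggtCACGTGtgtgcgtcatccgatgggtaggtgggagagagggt
Eif4g1, chr16:20672638-20672713, plus strand, 54 bases before: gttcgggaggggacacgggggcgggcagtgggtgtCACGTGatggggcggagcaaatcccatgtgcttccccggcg
Eef2, chr10:81176553-81176628, plus strand, 43 bases before: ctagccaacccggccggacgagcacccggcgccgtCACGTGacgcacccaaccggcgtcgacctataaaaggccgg

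Of the 12 tested members with an E-box, 11 were higher in EBM and their median log2 fold change was 0.14. Of the 38 tested members with a window and no E-box, 25 were higher and the median was 0.09. The genes shown above spanned fold changes from 0.00 for Eif4a1 and Eif4g1 to 0.20 for Eif3f on the log2 scale. The difference between members with and without an E-box was not tested. They were not matched for level, with which fold changes moved. Over all genes tested 50.4% were higher in EBM, and a share over all genes with an E-box is not given.

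A list of 50 genes that act beside the factors in translation was read out in the same way. Of 48 tested, 31 were higher in EBM and 17 lower, with a median log2 fold change of 0.02, and 0 had an adjusted or an unadjusted p under 0.05 by edgeR, DESeq2 or limma-voom. Of the 10 mitochondrial translation factors, 4 were higher and 6 lower, with a median of -0.13, and the difference of these lists from the members was not tested. Tufm, the elongation factor Tu of mitochondria, had 66.2, 64.9 and 79.6 CPM in CBM and 84.0, 81.1 and 84.2 CPM in EBM, without overlap (log2 fold change 0.24 ± 0.11, unadjusted p 0.0573). Guf1, a mitochondrial GTPase of elongation, had 58.6, 68.1 and 58.7 CPM in CBM and 53.5, 57.4 and 45.9 CPM in EBM, also without overlap (log2 fold change -0.24 ± 0.12, unadjusted p 0.0883). Mtif2 and Mtif3, the initiation factors of mitochondria, had log2 fold changes of -0.22 and -0.28, and Mrrf, which recycles their ribosomes, had 0.28, and in each of these the regions overlapped. Gtpbp1, a GTPase that works with eEF1A and on stalled ribosomes, had a log2 fold change of 0.26 ± 0.19.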

How the data were processed

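The authors sequenced libraries made with a directional kit and deposited raw counts for 54532 genes, with coordinates and a length for each. Their methods describe rRNA-depleted RNA, while the labels give the library type as mRNA. Per the labels, reads were aligned to mm10 with HISAT2 2.0.5; the counting tool and its strand setting are not given in the sources used here, so the 16 members that overlap a tested gene on the opposite strand and the 9 that overlap one on the same strand are uncertain. The counts were used as deposited. The identifiers and coordinates of 66 of 69 members are those of GENCODE M21. The members, their roles, the lists of partners and markers and the tests were chosen with earlier results of these data known.

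Genes were filtered by filterByExpr, scaled by TMM and tested by the quasi-likelihood F-test of edgeR 4.0.16, with Benjamini-Hochberg adjustment over the 13352 genes tested, a threshold of 0.05 and no block (common dispersion 0.0617, prior degrees of freedom 2.81). Alternatives were DESeq2 1.42.0, limma-voom (limma 3.58.1), median-ratio size factors, no filter, a stricter filter, a replicate block and each library left out. Corrections for gene length and mean level (loess, span 0.3) were added after seeing the data. The fit was checked on simulated data with planted differences larger than that of any tested member. This check says nothing on differences as small as those of the members. Genes named in the text were 14 central factors, the 8 members with the smallest p in each direction, the highest RPKM of each role, the members not tested and 3 partners in each direction. Promoters were those of RefSeq on GRCm38.p6.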

Additional observations from a re-analysis of the deposited data

How the results depend on the processing

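No member was called under any of the 14 alternatives, and of 475 values for 34 named genes 441 kept their direction and 0 passed the threshold, with a lowest adjusted p of 0.327 by DESeq2. Over all genes, the 0 calls of edgeR became 176 with DESeq2, 40 without the filter on low counts, 1 with the gene-length correction and 4 with the mean-level correction. The 8 members at an unadjusted p under 0.05 (7 higher in EBM) became 2 with the gene-length correction (2 higher), 5 with the mean-level correction (2 higher) and 3 without the filter (2 higher), and 1 to 5 when a library was left out, 1 without CBM replicate 2 (1 higher) and 4 without EBM replicate 3 (1 higher). The members' median of 0.12 became 0.024 with the mean-level correction. Members with every EBM library above CBM numbered 17 to 23 with a library left out, 23 without CBM replicate 3, and members with every EBM library below 3 to 7, 7 without CBM replicate 1 or EBM replicate 2. Non-overlap is easier to reach with fewer libraries, and the shares over all genes with a library left out are not given. These counts are therefore no check on those with all 6 libraries. The summed share differed by 0.112 percentage points and by 0.274 on TMM-scaled CPM, and by 0.033 without EBM replicate 3 and 0.175 without EBM replicate 2. The causes were not tested.

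With the mean-level correction the log2 fold changes turned to -0.11 for Eif4g1, -0.12 for Eif4a1, -0.027 for Eif4ebp1, -0.013 for Eif5a, -0.094 for Eef1a1, -0.066 for Eef2 and -0.036 for Eef2k. With the stricter filter those of Eif4g1 and Eif4ebp1 were -0.00026 and -0.0020, with median-ratio size factors that of Eif4ebp1 was -0.0013, and with the gene-length correction it was -0.025. For Eif2s3x they were 0.0040 with DESeq2, 0.0021 with limma-voom, 0.0162 with the gene-length correction and 0.0048 without the filter. Leaving out a library gave -0.13 to 0.081 for Eif4g1, -0.050 to 0.045 for Eif4a1, -0.16 to 0.16 for Eif4ebp1, -0.36 to 0.16 for Eif2ak1, -0.16 to 0.13 for Eef2k, -0.54 to 0.029 for Eif4ebp3, -0.072 to 0.065 for Eif2s3x and -0.031 to 0.16 for Eef1akmt2.

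Whether libraries of the same number are paired cannot be told from these values. The deviations from the region means correlated by 0.68, -0.20 and 0.20 for replicates 1, 2 and 3. CBM replicates 1 and 3 correlated best with the EBM library of their number, while CBM replicate 2 correlated best with EBM replicate 3 (0.51). With the replicate block 0 members were called, 9 had an unadjusted p under 0.05, the median was 0.10 and Eif2s3x had 0.0020.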
